A study of Mus musculus with 4 samples.

Results

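Cst12, 2610028E06Rik, Lrrn1 and Glra1 are 4 of the 21495 genes measured in mouse gonads that lack the miR-17-92 microRNA cluster, and they were picked for their high ratios of KO over XY control, selected on the values of pre-supporting cells. The ratios in that cell type are therefore a description, and the open question was whether the same genes were also higher in the other cell types. Single-cell RNA-seq of gonads with attached mesonephros gave 1 sample per group: XY control at E11.5, XY KO at E11.5, XY KO at E11.75 and XX control at E11.5. The XY KO embryos carried a homozygous CRISPR/Cas9 deletion of the cluster made in G4 embryonic stem cells, a C57BL/6J and 129 F1 hybrid line, and were derived by tetraploid complementation. The XY controls came from the unedited G4 line by the same route, so that all XY embryos share this origin, whereas the XX controls came from crosses of C57BL/6J males with 129 females. Each sample pooled several pairs of organs, and the number of edited stem cell clones behind the KO embryos is not given in the sources used here.

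Since each group is 1 sample, no test was possible, and every interval below is a 95% interval that covers counting error only. Levels are unique molecular identifiers (UMIs) of a gene in the summed cells, given in CPM, the usual unit that scales each library to the same total of UMIs. The samples held 23527, 17057, 8492 and 3669 cells in the order given, with medians of 3893, 4763, 3921.5 and 15509 UMIs per cell, and the XX cells were filtered differently by the authors. All values in fours below follow this order. The authors' methods give 17057 cells to the KO at E11.75 and 8492 to the KO at E11.5, the reverse of the deposited labels used here. By these labels the KO at E11.5 had 2 runs and the KO at E11.75 had 1. The authors likewise describe 1 replicate for the KO at E11.75. Any 2 samples shared between 17 and 123 cell barcodes, and runs of 1 sample shared between 1 and 40. The KO at E11.75 was set against a control at E11.5, so stage and deletion cannot be told apart in it.

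Pre-supporting cells are the bipotential precursors that become Sertoli cells in a testis or granulosa cells in an ovary. MicroRNAs pair through a short seed at their 5′ end with sites in target transcripts and lower their stability or translation. The 4 genes have unrelated products. Cst12 encodes a cystatin, a family of secreted inhibitors of cysteine proteases, 2610028E06Rik is annotated as a long intergenic non-coding RNA, Lrrn1 encodes a neuronal leucine-rich repeat membrane protein, and Glra1 encodes the alpha 1 subunit of the glycine-gated chloride channel.

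The mature sequences encoded in the deleted cluster are given first, and related clusters elsewhere in the genome can carry the same seeds. Mir17hg, the host transcript of the cluster, was at 9.39, 99.0, 108 and 7.96 CPM in pre-supporting cells, so both KO libraries stood apart from both controls at the edited locus. Counts of this host transcript do not read the deleted miRNAs and so do not check the deletion itself. The 6 mature miRNAs are printed 5′ to 3′ from RefSeq (GRCm38.p6, chromosome 14, plus strand), with the seed, bases 2 to 8, in capitals.
mmu-miR-17-5p: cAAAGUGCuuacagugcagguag
mmu-miR-20a-5p: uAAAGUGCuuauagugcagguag
mmu-miR-18a-5p: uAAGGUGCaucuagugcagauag
mmu-miR-19a-3p: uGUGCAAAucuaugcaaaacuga
mmu-miR-19b-3p: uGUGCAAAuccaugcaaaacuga
mmu-miR-92a-3p: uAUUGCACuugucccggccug
The first pair shares 1 seed, miR-19a and miR-19b share another, and miR-18a and miR-92a each have their own.

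Matches to these seeds were not shared by the 4 genes. The search took the reverse complement of bases 2 to 8 (7mer-m8), that of bases 2 to 7 followed by A (7mer-A1), or both together (8mer), on the transcript strand. The 3′ UTRs of Cst12 (229 bases) and Lrrn1 (821 bases) held no 8mer and no 7-base match to any of the 6. Glra1 (575 bases) held 1 8mer match of miR-92a at base 112 of its 3′ UTR and a 7mer-A1 match of miR-92a at base 151. The transcript of 2610028E06Rik (3623 bases) held a 7mer-m8 match of miR-92a at base 3238 and of miR-19a and miR-19b at base 3329. These 4 matches are shown with 10 bases on each side, with the match in capitals, because they are the only ones found in the stretches searched. Coding sequences and 5′ UTRs were not searched.
Glra1, 8mer of miR-92a: cctccaccaaGTGCAATAgaaaccacag
Glra1, 7mer-A1 of miR-92a: tccagggtatTGCAATAtccatctagc
2610028E06Rik, 7mer-m8 of miR-92a: aaaatcaaatGTGCAATgaaaccaagg
2610028E06Rik, 7mer-m8 of miR-19: acatgggcttTTTGCACtgggcaggcg
Of 17322 genes with an annotated 3′ UTR, 12.7% held an 8mer and 45.2% an 8mer or 7-base match of any of these seeds. A match is only a description, and its absence says nothing of the miRNAs beyond these letters.

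Cst12 (chr2:148789361-148793546, plus strand, mm10) was scarce in pre-supporting cells of both controls and higher in both KO samples. It had 34, 187, 132 and 24 UMIs in 1641, 1084, 924 and 352 cells, which is 4.31, 31.0, 28.8 and 3.54 CPM. Both KO samples lay far above both controls, and the intervals of the controls overlapped. The KO was 7.19-fold (interval 4.97 to 10.7) above the XY control at E11.5 and 6.67-fold (4.55 to 10.0) at E11.75, and the KO samples differed from each other by -0.11 on the log2 scale (-0.44 to 0.22). In cells with at least 5000 UMIs the log2 ratio at E11.75 was 1.996, from 22.8 against 5.63 CPM. The 2 runs of a sample, which hold different cells of the same pool, gave 39.4 and 23.4 CPM in the KO at E11.5 with intervals that do not overlap, and 3.36 and 5.38 CPM in the XY control. Each KO run was above each control run, but Cst12 was chosen on the values of these same cells, so this is a description only.

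2610028E06Rik (chr4:125887851-125922417, minus strand) was at 8.37, 43.6, 30.5 and 4.13 CPM in pre-supporting cells, from 66, 263, 140 and 28 UMIs. The KO was 5.21-fold above the XY control at E11.5 and 3.64-fold at E11.75, whereas the XX control was at 0.49-fold of it (log2 ratio -1.01, -1.71 to -0.36). The lncRNA was the member with the lowest XX level relative to XY, and the KO at E11.75 was below the KO at E11.5 (log2 ratio -0.51, -0.82 to -0.21).

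Lrrn1 (chr6:107529768-107570214, plus strand) was at 7.99, 27.7, 78.7 and 6.34 CPM, from 63, 167, 361 and 43 UMIs. Its gain was larger in the later KO sample, with 3.47-fold at E11.5 and 9.84-fold at E11.75, and the interval of the log2 ratio of the later over the earlier KO sample ran from 1.24 to 1.78.

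Glra1 (chr11:55514238-55608198, minus strand) was at 4.31, 19.2, 8.50 and 5.31 CPM, from 34, 116, 39 and 36 UMIs. The KO at E11.5 stood apart at 4.46-fold (log2 ratio 2.14, 1.60 to 2.75). The KO at E11.75 was 1.97-fold above the XY control (log2 ratio 0.98, 0.28 to 1.69) and was 0.68 above the XX control with an interval from -0.01 to 1.37. The gain of Glra1 was therefore weaker at E11.75 than at E11.5 (log2 ratio of the later over the earlier KO -1.17, -1.74 to -0.64). Its interval over the XY control lay above 0 in both KO samples, also with TMM factors (0.08 to 1.49 at E11.75). In cells with at least 5000 UMIs its log2 ratios were 3.29 and 2.20, where the XY control had 7 UMIs (1.71 CPM, against 7.11 CPM in shallower cells), so the size of both ratios depended on which control cells were counted.

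Where a gene needed 50 or more UMIs in the pair of samples, the members ranked 2, 4, 15 and 6 of 11009 by ratio at E11.5, in the order Cst12, 2610028E06Rik, Lrrn1 and Glra1. At E11.75 they ranked 15, 60, 7 and 593 of 11041. Of 10881 genes with enough UMIs in both comparisons, 0.395% were higher by over 2-fold in both KO samples. Single comparisons had 0.836% higher and 3.01% lower at E11.5, and 4.39% higher and 2.22% lower at E11.75. With TMM factors, which centre the ratios of all genes, the split at E11.75 turned to 2.27% higher and 3.70% lower. Since the rule used these ratios, nothing is read from the count of 3 of 4 members past 2-fold in both. The median ratio of all genes was -0.09 at E11.5 and 0.19 at E11.75, and the TMM factors moved it to -0.01 at both.

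**Figure D1:**
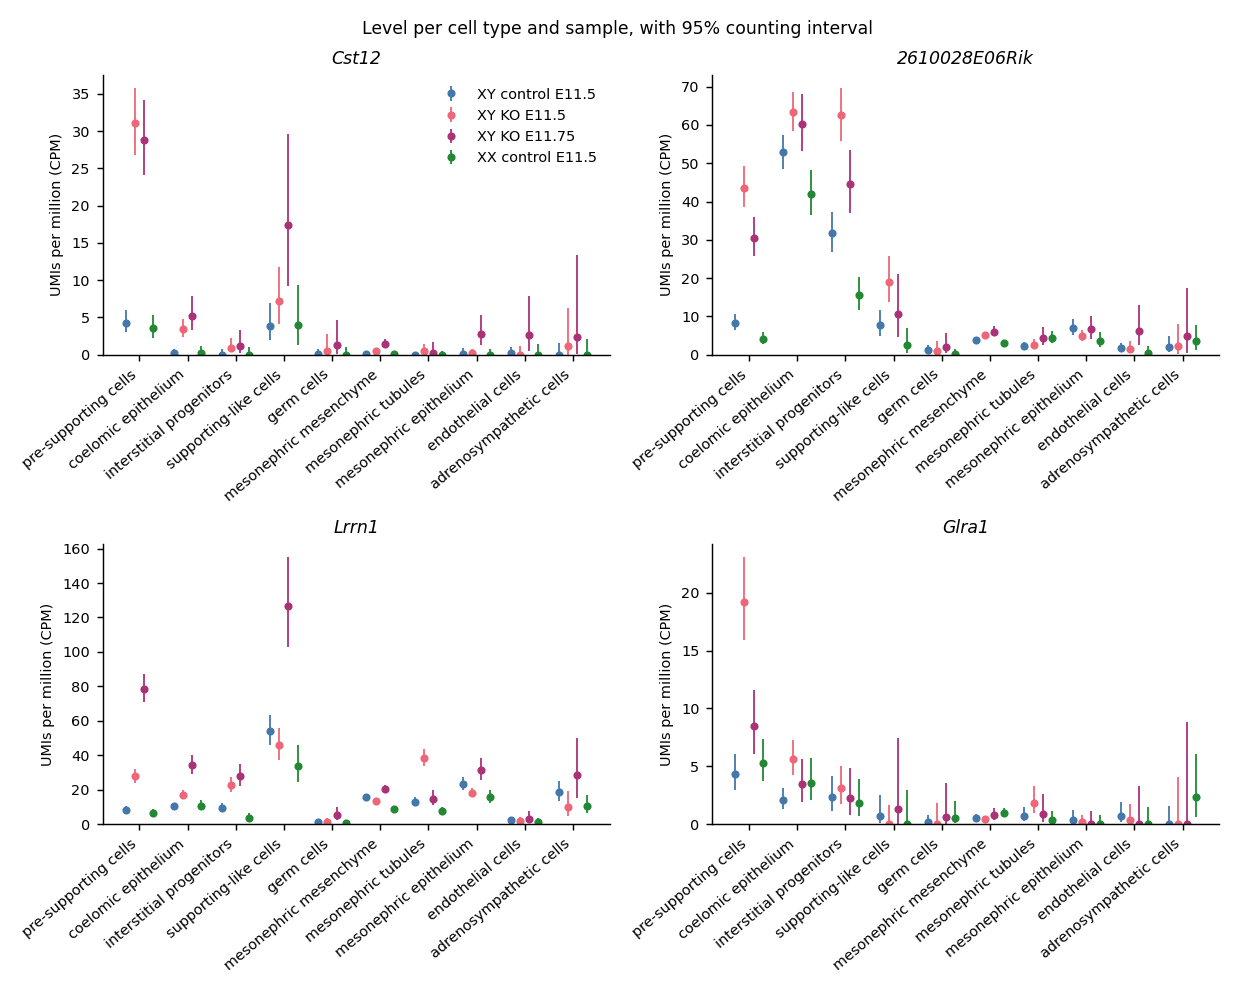
Level of each gene in CPM (vertical axis, linear, own scale per panel) in the 10 cell types (horizontal axis) with at least 50 cells in each XY sample, 1 point per sample with its 95% counting interval. Cst12 and Glra1 are highest in pre-supporting cells of the XY samples, 2610028E06Rik in coelomic epithelium and Lrrn1 in supporting-like cells.

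The share of cells with at least 1 UMI moved with the levels. To compare samples of different depth, each cell was thinned to 3000 UMIs, which left 1468, 1030, 831 and 349 pre-supporting cells. Cst12 was detected in 1.09%, 6.31%, 6.98% and 0.573% of them. For 2610028E06Rik the shares were 3.07%, 10.7%, 8.06% and 1.15%. Lrrn1 was seen in 2.11%, 7.38%, 20.3% and 1.43%, and Glra1 in 1.63%, 6.50%, 2.65% and 2.01%. The members were chosen on KO over control values of these same cells, so the separation of the KO and XY control shares is a description. The intervals overlapped for Glra1 at E11.75. In germ cells, a lineage apart, the thinned shares of the 4 genes were at most 0.719%, at median depths of 11990.5, 12156, 9279.5 and 40644 UMIs before thinning. Without thinning, Cst12 was seen in 1.77%, 9.41%, 9.74% and 5.40% of cells, at a median depth of 17498.5 UMIs in the XX control and 4522 in the XY control.

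**Figure D2:**
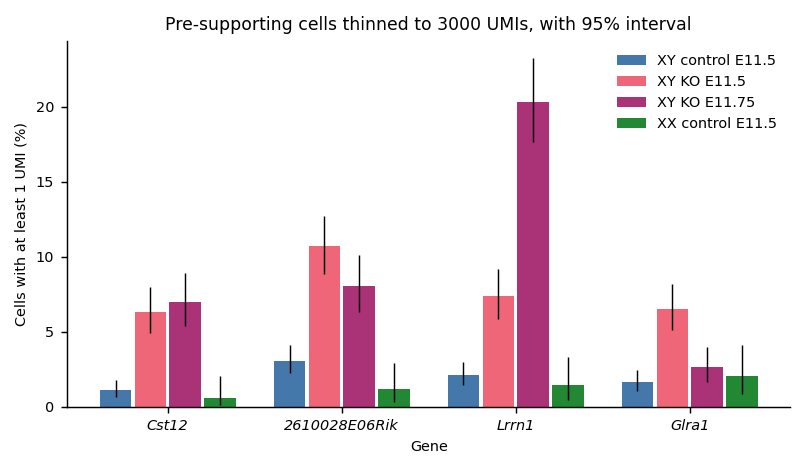
Percent of pre-supporting cells with at least 1 UMI (vertical axis) of each gene (horizontal axis) after thinning to 3000 UMIs, 1 bar per sample with its exact 95% interval. Lrrn1 reaches 20.3% in the KO at E11.75, and no control bar exceeds 3.07%.

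Detection per cell stayed sparse in all samples. In the KO at E11.5 982 of 1084 cells had no Cst12 UMI, 63 had 1, 19 had 2 and 20 had 3 or more, up to 8. In the XY control 1 of 1641 cells reached 3. In the KO at E11.75 33 of 924 cells had 3 or more Lrrn1 UMIs, against 0 in the XY control. Of thinned cells, 92.1%, 72.8%, 67.0% and 94.8% had a UMI of none of the 4 genes, and no cell had all 4. Pairs of members in the same cell were few. In the KO at E11.75, 17 cells had both 2610028E06Rik and Lrrn1 where the product of their shares gives 13.6. In the KO at E11.5, 12 cells had both 2610028E06Rik and Glra1 where the product gives 7.16, and 2 had both Cst12 and 2610028E06Rik where it gives 6.94.

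Cst12 and 2610028E06Rik also differed by the presence of Wnt4, an ovary-promoting signal expressed in pre-supporting cells. The contrasts given here are some of those over 5 genes used to divide these cells, chosen after their values were seen. In the KO at E11.5, Cst12 was detected in 7.85% of the 713 thinned pre-supporting cells with a Wnt4 UMI and in 2.84% of the 317 without. For 2610028E06Rik it was the reverse, 7.57% with Wnt4 and 17.7% without. At E11.75 the shares with and without Wnt4 were 7.66% and 4.90% for Cst12 and 7.81% and 8.82% for 2610028E06Rik, so that the shares of the lncRNA lay close together there. Foxl2 encodes a transcription factor of the granulosa fate. At E11.75, Lrrn1 was detected in 35.3% of 85 cells with a Foxl2 UMI and in 18.6% of 746 without. It was also in 25.6% of 117 cells with a Sox9 UMI and 19.5% of 714 without, and in 30.8% of 39 cells with a Cst9 UMI and 19.8% of 792 without. Sox9 encodes the transcription factor that drives Sertoli differentiation. In the KO at E11.5, 2610028E06Rik was found in 0 of 57 cells with a Sox9 UMI and in 11.3% of 973 without. Lrrn1 was in 1.75% and 7.71% of the same cells, but the first share is 1 cell, so its direction was not set against that at E11.75. Glra1 was in 1.75% and 6.78% of these cells and Cst12 in 5.26% and 6.37%, from 1 and 3 cells with a Sox9 UMI. In the XY control Lrrn1 was in 1.69% of 354 cells with a Sox9 UMI and in 2.24% of 1114 without. These are shares within a sample and carry no test.

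Outside pre-supporting cells the members behaved differently from each other, and the 4 levels per type are given next. Cell types follow the deposited annotation, and 10 of the 13 had at least 50 cells in each of the 3 XY samples. Their marker lists were highest in their own type in 11 of 12, 10 of 11, 9 of 10 and 11 of 11 types. The exception was the pre-supporting list, which was slightly higher in supporting-like cells of the 3 XY samples.

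Cst12 was largely limited to the supporting lineage in level, but its ratios of KO over XY control were also high in some other types. The counts there were low, and the part of free RNA in them was not tested. Pre-supporting cells held 53.1%, 68.8%, 60.3% and 66.7% of all Cst12 UMIs, beside 7.50%, 6.68%, 12.1% and 9.98% of all UMIs. Supporting-like cells, a related lineage that contributes to the rete of the gonad, had 3.89, 7.26, 17.4 and 4.03 CPM. Their log2 ratio was 0.88 at E11.5, with an interval that held 0 (-0.30 to 2.15), and 2.15 (0.88 to 3.46) at E11.75. Sertoli cells had 9 Cst12 UMIs of a total of 4152994 in the XY control and 10 of 1026574 in the KO at E11.75. The level was thus higher in the KO, on few UMIs. Coelomic epithelium, the surface layer from which supporting cells arise, had 0.278, 3.41, 5.25 and 0.210 CPM from 3, 34, 23 and 1 UMIs. The log2 ratios there were 3.41 (1.95 to 5.96) and 4.05 (2.51 to 6.62). Mesonephric mesenchyme had 0.0935, 0.483, 1.38 and 0.139 CPM from 4, 21, 20 and 4 UMIs. In interstitial progenitors 0 UMIs in the XY control, which allows up to 0.632 CPM, stood against 5 and 3 in the KO samples. The interval of the log2 ratio at E11.5 had a lower end of -0.25, so a difference was not detectable at this depth.

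Low counts in other types can include free RNA from the droplets, whose part was not tested, and the levels of 2 genes are given beside them. Cst8, a cystatin gene next to Cst12, had 830 UMIs in pre-supporting cells and 748 in Sertoli cells of the XY control. In pre-supporting cells Cst12 made up 3.94%, 29.8%, 19.97% and 3.598% of Cst12 and Cst8 UMIs. In mesonephric mesenchyme it was 2.45%, 37.5%, 29.4% and 5.71%, and in coelomic epithelium 3%, 38.6%, 29.9% and 2.50%. The share also depends on Cst8, which was lower in the KO at E11.5 than in the XY control. It had 35 against 159 UMIs in mesonephric mesenchyme, of totals of 43486834 and 42768920. In coelomic epithelium it had 54 against 97, of totals of 9978962 and 10786003. In pre-supporting cells its log2 ratio was -0.52 (-0.70 to -0.36) at E11.5 and 0.13 (-0.03 to 0.29) at E11.75. Within each sample the intervals of these 3 cell types overlapped, so the ratio of the 2 genes could not be told apart between them. In supporting-like cells the share was 20%, 38.1%, 41.9% and 12.8%, and in the XY control and the KO at E11.75 that interval lay above the one of pre-supporting cells. In Sertoli cells it lay below it in the same 2 samples, at 1.19% and 6.90%, and in mesonephric epithelium of the KO at E11.75 it was 64.3%, from 9 Cst12 and 5 Cst8 UMIs. Dppa5a, a germ cell gene, was at 51.1, 14.1, 19.2 and 31.9 CPM in mesonephric mesenchyme, where it is not known as a gene of the tissue.

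**Figure D3:**
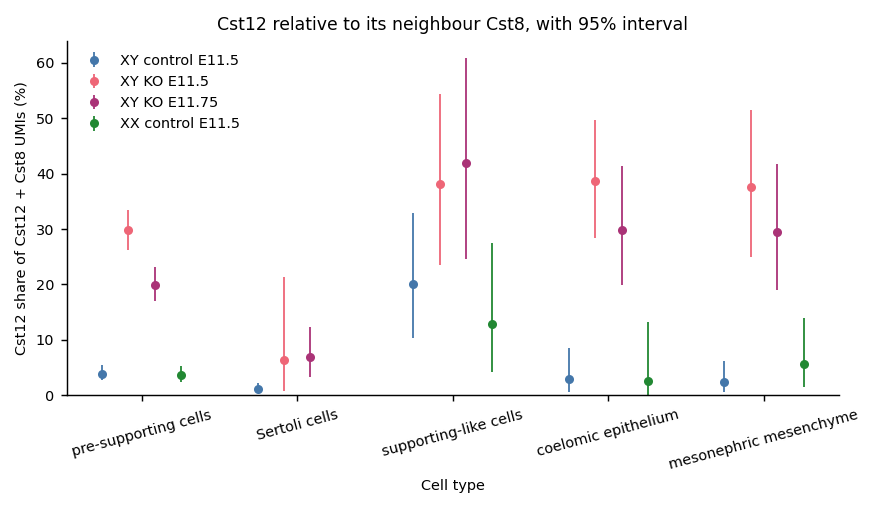
Cst12 UMIs as a percent of Cst12 and Cst8 UMIs (vertical axis) in 5 cell types (horizontal axis) and each sample, with exact 95% intervals. Sertoli cells of the XX control, with 8 UMIs of both genes, are left out. Within each KO sample, pre-supporting cells, coelomic epithelium and mesonephric mesenchyme have overlapping intervals.

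2610028E06Rik was a gene of coelomic epithelium and interstitial progenitors in the controls. Coelomic epithelium had 52.9, 63.3, 60.3 and 42.0 CPM, and the KO at E11.5 was above the XY control by 0.26 on the log2 scale (0.10 to 0.43). At E11.75 the interval held 0 (0.19, -0.03 to 0.40). Interstitial progenitors, the precursors of the stromal and steroidogenic lineages, had 31.8, 62.5, 44.6 and 15.5 CPM, with log2 ratios of 0.97 (0.69 to 1.26) and 0.49 (0.13 to 0.84), of which the second interval held 0 with TMM factors (-0.03 to 0.69). Pre-supporting cells were thus far below coelomic epithelium in the XY control (8.37 against 52.9 CPM) and came closer to it in the KO at E11.5 (43.6 against 63.3 CPM). In pre-supporting cells the coelomic marker list was at 272, 356, 430 and 272 CPM and the Sertoli list at 219, 30.5, 102 and 14.3 CPM. Most of the coelomic sum came from Lhx9, also a gene of the early gonad, at 257, 331, 414 and 254 CPM. The sum thus mainly reads this 1 gene. A part of the make-up of the pre-supporting cells in the gain was not tested. Supporting-like cells had 7.78, 19.1, 10.7 and 2.42 CPM, and the interval excluded 0 at E11.5 only (1.28, 0.52 to 2.11, against 0.51, -0.92 to 1.68). Mesonephric mesenchyme stayed low at 3.97, 5.27, 6.01 and 2.99 CPM, with log2 ratios of 0.40 and 0.60 whose intervals excluded 0. Pre-supporting cells held 6.09%, 16.8%, 20.8% and 6.45% of its UMIs, beside 7.50%, 6.68%, 12.1% and 9.98% of all UMIs.

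Lrrn1 was expressed in most types, with its highest level in supporting-like cells of every sample at 54.1, 45.8, 127 and 33.9 CPM. There the KO at E11.5 was not above the XY control (log2 ratio -0.24, -0.62 to 0.13), whereas the KO at E11.75 was 2.34-fold higher. Coelomic epithelium had 10.4, 16.8, 34.3 and 10.7 CPM, and interstitial progenitors had 9.27, 22.8, 27.9 and 3.58 CPM, with log2 ratios of 0.70 and 1.72 and of 1.29 and 1.58. All 4 of these intervals excluded 0. Sertoli cells, which were 24 cells in the KO at E11.5, had 8.91 CPM in the XY control and 45.8 CPM in the KO at E11.75 (log2 ratio 2.36, 1.71 to 3.02). Outside the gonad the pattern broke up. Mesonephric tubules had 12.9, 38.3, 14.8 and 7.83 CPM, so that the gain was present at E11.5 (1.56, 1.24 to 1.90) and not distinguishable from 0 at E11.75 (0.20, -0.31 to 0.68). The pre-supporting marker list was at 447, 670, 427 and 307 CPM in these tubules, and the tubule list at 432, 335, 608 and 282 CPM. A part of the make-up of the tubule cells in the gain was not tested. Mesonephric mesenchyme had 16.0, 13.2, 20.2 and 8.64 CPM, with log2 ratios of -0.28 (-0.44 to -0.12) at E11.5 and 0.34 (0.13 to 0.53) at E11.75. Mesonephric epithelium had -0.36 and 0.43. With TMM factors only the interval of mesonephric mesenchyme at E11.5 still excluded 0 among these 4.

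Glra1 was low everywhere, and pre-supporting cells held 31.8%, 52.3%, 50.6% and 36.7% of its UMIs. Coelomic epithelium had 2.04, 5.61, 3.43 and 3.57 CPM, with a log2 ratio of 1.44 (0.73 to 2.24) at E11.5 and 0.76 (-0.30 to 1.76) at E11.75. Interstitial progenitors had 2.32, 3.09, 2.23 and 1.79 CPM and mesonephric mesenchyme had 0.561, 0.437, 0.760 and 0.983 CPM, with intervals that held 0. No Glra1 UMI was found in supporting-like cells of the KO at E11.5, where the XY control had 2, so no direction could be given.

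**Figure D4:**
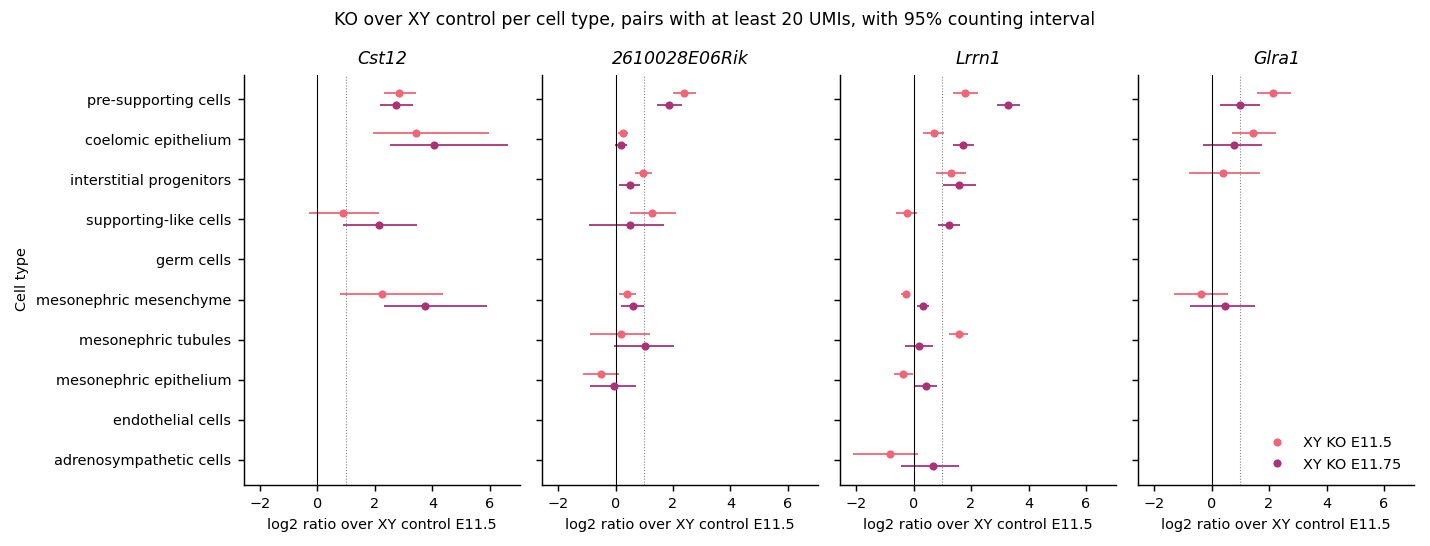
Log2 ratio of each KO sample over the XY control (horizontal axis; solid line at 0, dotted line at 1, which is 2-fold) per cell type (vertical axis), with 95% counting intervals, for pairs with at least 20 UMIs of the gene. Cst12 has intervals above 0 in both KO samples in pre-supporting cells, coelomic epithelium and mesonephric mesenchyme, and Lrrn1 has intervals below 0 at E11.5 in mesonephric mesenchyme and mesonephric epithelium, of which the second holds 0 with TMM factors.

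Counted over the 10 cell types, Cst12 was past 2-fold in both KO samples in 7, of which 3 rest on at least 20 UMIs in each comparison: pre-supporting cells, coelomic epithelium and mesonephric mesenchyme. Lrrn1 was past 2-fold in both in 2 (pre-supporting cells and interstitial progenitors) and 2610028E06Rik in 1 (pre-supporting cells). Glra1 was past it in 1, adrenosympathetic cells, where it had 0 UMIs in all 3 XY samples, so this value comes from the prior count and the totals alone. Shares of genes past 2-fold in both KO samples are given next, among genes with at least 50 UMIs in each comparison. They were 0.132% in coelomic epithelium, 0.137% in interstitial progenitors, 0.141% in supporting-like cells and 0.212% in germ cells. They were 0.138% in mesonephric mesenchyme, 0.137% in mesonephric tubules, 0.141% in mesonephric epithelium, 0.0625% in endothelial cells and 0.0377% in adrenosympathetic cells. Cst12 reached this minimum in pre-supporting cells only, and the part of free RNA in its counts elsewhere was not tested. At a minimum of 20 UMIs the share was 0.397% in coelomic epithelium and 0.326% in mesonephric mesenchyme. Over all cells but the pre-supporting ones, the log2 ratios at E11.5 and E11.75 were 1.70 and 3.07 for Cst12, 0.56 and 0.62 for 2610028E06Rik, 0.22 and 0.83 for Lrrn1, and 0.74 and 0.62 for Glra1. These pooled values hold cell types that moved the other way, such as Lrrn1 in mesonephric mesenchyme at E11.5. The ratios in pre-supporting cells were high by the choice of members, so the 2 sets are not compared.

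The neighbours were not part of the choice of members, whose own ratios were high by that choice. Of 24 neighbours, the 3 nearest measured genes on each side of each member, 20 had at least 20 UMIs in pre-supporting cells, and 0 of them were higher by over 2-fold in either KO sample, beside 1.41% of all genes at E11.5 and 5.84% at E11.75 at the same minimum of 20 UMIs, so that a count of 0 in 20 lies near the background. These neighbours lay up to 78176 bases from Cst12, 774613 from 2610028E06Rik, 830458 from Lrrn1 and 1874795 from Glra1. Cst12 lies in a cluster of cystatin genes. Cst8, 5239 bases away, was at 105, 73.1, 115 and 94.8 CPM. Cst9, 41601 bases away and a gene of Sertoli cells in the mouse, was at 65.8, 19.9, 20.05 and 34.7 CPM, with log2 ratios of -1.72 and -1.71. Cst12 and Cst9 thus moved in opposite directions in both KO samples. Nmur2, 416789 bases from Glra1, encodes a neuromedin U receptor and had 38, 2, 13 and 29 UMIs. Itpr1, Sumf1 and Cntn4 lie 642882, 536814 and 830458 bases from Lrrn1. They had log2 ratios of 0.88, 0.90 and 0.97 at E11.75 and of 0.16, 0.02 and -0.15 at E11.5. The intervals of these 3 at E11.75 lay above 0 (0.75 to 1.01, 0.41 to 1.39 and 0.58 to 1.35), as did that of Napb beside Cst12 (0.65, 0.14 to 1.16), which held 0 with TMM factors (-0.06 to 0.96). That of G3bp1 beside Glra1 also lay above 0 at E11.75 (0.33, 0.23 to 0.42), and so with TMM factors (0.04 to 0.23). Those of Atox1 beside Glra1 (-0.75) and of Cst3 (-0.41) and Cst9 beside Cst12 lay below 0. Grik3 near 2610028E06Rik, under that minimum with 6 UMIs in the XY control and 12 in the KO at E11.75, was at 1.72 (0.26 to 3.48).

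**Figure D5:**
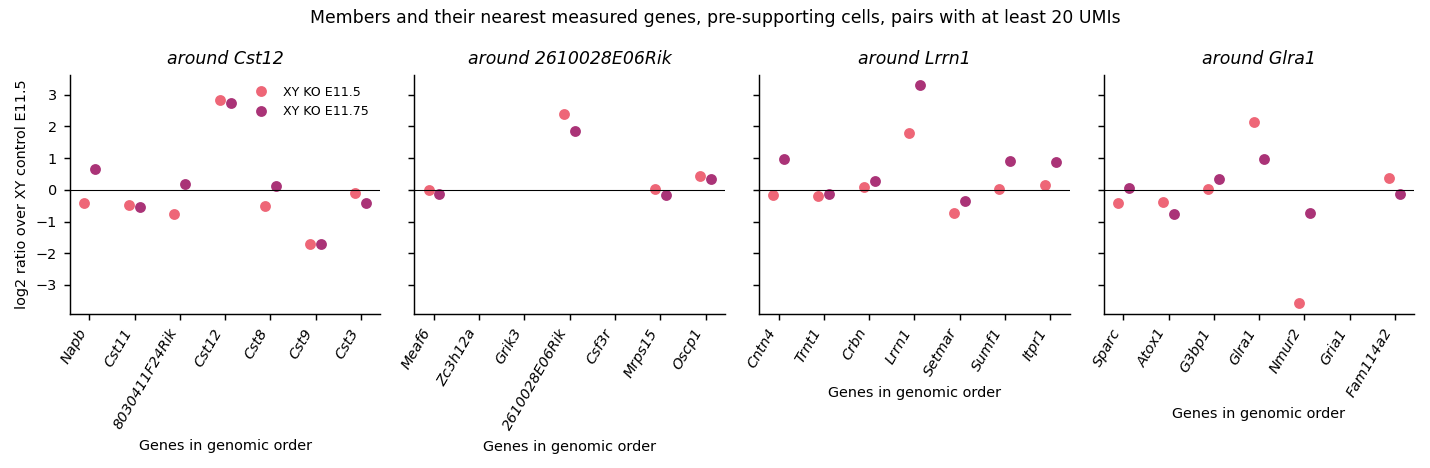
Log2 ratio of KO to XY control, pre-supporting cells (vertical axis), of each member and its 3 nearest measured genes on each side, in genomic order (horizontal axis), 1 colour per KO sample; genes with under 20 UMIs in a pair have no point. No neighbour with a point is above 1 in either KO sample, and Cst9 lies at -1.72 and -1.71.

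Other genes of the families were few, and counts of 0 among 5 or 7 genes lie near the background. Of 17 listed cystatin genes, 9 were in the table and 5 besides Cst12 had at least 50 UMIs at E11.5. Of these 0 were higher and 1 (Cst9) lower by over 2-fold, beside 0.836% and 3.01% of all genes. Their median log2 ratio was -0.47 beside -0.09 for all 11009 genes. At E11.75 4 could be read, with 0 higher and 1 (Cst9) lower, beside 4.39% and 2.22% of all genes. The median there was -0.43 beside 0.19 for all genes. Of the leucine-rich repeat genes 7 besides Lrrn1 could be read. At E11.5 0 were higher and 1, Slitrk1, was lower (30.4 to 15.1 CPM, log2 ratio -1.01, and -0.92 with TMM factors). At E11.75 2 were higher, Flrt1 (3.93 to 15.3 CPM) and Flrt2 (22.2 to 66.7 CPM), both encoding adhesion proteins, beside 4.39% of all genes, and the median of the list was 0.34 beside 0.19 for all genes. The closest relative, Lrrn3, was at 27.1, 17.1 and 34.2 CPM in the 3 XY samples. In the glycine list, Gphn, which encodes the scaffold gephyrin, had log2 ratios of -0.15 and 0.36, and Slc6a9, a glycine transporter, had 0.17 and 0.96, so neither was higher by over 2-fold. Glrb, the beta subunit, was under the minimum of 50 UMIs and is not in that count. It had 8 UMIs in the XY control and 10 and 22 in the KO samples, of totals of 7884234, 6029192 and 4589289. Its level at E11.75 was thus over 2-fold above the XY control, on few UMIs.

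The start regions of the members differed as well. RefSeq (GRCm38.p6) gave a window of 250 bases before to 50 after the start for Cst12, 2610028E06Rik and Lrrn1. The 2 with the fewest and the most CG dinucleotides are printed, with each CG in capitals. Cst12 had 3 CG dinucleotides and 52.7% G and C (chr2:148789115-148789414, plus strand), and Lrrn1 had 24 and 67.3% (chr6:107529476-107529775, plus strand). 2610028E06Rik had 7, which is also the median of 32851 windows.
Cst12: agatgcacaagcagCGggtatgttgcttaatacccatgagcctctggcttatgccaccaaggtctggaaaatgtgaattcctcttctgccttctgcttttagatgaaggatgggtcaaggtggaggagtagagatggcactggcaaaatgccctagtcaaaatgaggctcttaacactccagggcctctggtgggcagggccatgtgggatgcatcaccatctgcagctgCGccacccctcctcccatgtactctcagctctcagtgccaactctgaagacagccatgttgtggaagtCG
Lrrn1: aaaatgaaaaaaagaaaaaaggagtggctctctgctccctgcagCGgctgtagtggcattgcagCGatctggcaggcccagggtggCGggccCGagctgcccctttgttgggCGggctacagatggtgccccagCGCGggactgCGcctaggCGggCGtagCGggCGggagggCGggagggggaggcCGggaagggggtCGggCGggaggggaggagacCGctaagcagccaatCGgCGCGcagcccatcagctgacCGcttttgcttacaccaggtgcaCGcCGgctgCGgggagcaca
Of all windows 31.4% had as few CG dinucleotides as Cst12 or fewer, and 81.6% had as few as Lrrn1 or fewer.

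The members had different companions over 48 profiles of cell type by sample, among 13154 genes with at least 500 UMIs. These profiles share libraries and depth, so the correlations are descriptions. Cst12 was most like Foxl2 (Pearson's r 0.85), Nrn1 (0.83) and Papln (0.82), none of which stayed among its 3 most alike genes by Spearman's rho. 2610028E06Rik was most like Tceal6 (0.89), Lhx9 (0.88), a transcription factor of the early gonad and its surface epithelium, and Acvr1c (0.83), which encodes a receptor of the activin family. Lrrn1 was most like Rtl6 (0.88), Slc4a3 (0.86) and Sbk1 (0.85), which Spearman's rho also replaced, and Glra1 was most like 4930563E18Rik (0.81), Ereg (0.80), an EGF receptor ligand, and Gbp2b (0.77). Between members r ran from 0.30 for Lrrn1 with Glra1 to 0.67 for 2610028E06Rik with Glra1.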

How the data were processed

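Gonads with mesonephros of 4 mouse samples, 1 per group, were fixed in methanol and profiled with 10x Genomics 3′ chemistry. The authors counted reads with Cell Ranger 6.1.1 against mm10 with a second Sry exon added and deposited raw UMI counts per gene and cell. They filtered XY cells by mitochondrial and globin content, UMIs and genes, XX cells by low-quality clusters, and doublets with DoubletFinder, and named cells after integration in Seurat.

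Groups came from the labels and cell types from the deposited annotation. UMIs were summed per sample and type. Intervals are exact (Poisson for sums, Clopper-Pearson for shares, binomial for ratios). Log2 ratios used a prior count of 0.5, so they can differ from the log2 of a printed fold. Cells under 3000 UMIs were left out of thinned shares. A 0 is given with the level of 3 counts. Ratios over all genes needed 50 UMIs in the pair, and types 50 cells. The interval code was tested on simulated data. Genes named besides the members and Mir17hg were the 3 nearest with at least 50 UMIs on each side, the 3 most alike by Pearson's r, and lists of cystatin, leucine-rich repeat, glycine and marker genes, of which 1 glycine gene is not reported here. Foxl2, Sox9, Wnt4 and Dppa5a contrasts were singled out after their values were seen. Members and lists were chosen with earlier results of these data known. Positions and 3′ UTRs came from GENCODE M21, which held 98.6% of symbols. Alternatives were TMM factors (edgeR 4.0.16, R 4.3.3), other totals, priors, folds, minimum counts and thinning depths, CPM averaged over cells, deeper cells, single runs, merged Sertoli cells and Spearman's rho. Python 3.11.15, numpy 2.4.6 and scipy 1.17.1 were used.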

Additional observations from a re-analysis of the deposited data

Results flagged for a closer look

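The log2 ratios of Lrrn1 had opposite signs in the KO samples within 2 mesonephric cell types, and these differences were not tested because there is 1 sample per group. In mesonephric mesenchyme its log2 ratio over the XY control was -0.28 (-0.44 to -0.12) at E11.5 and 0.34 (0.13 to 0.53) at E11.75. In mesonephric epithelium it was -0.36 (-0.68 to -0.03) at E11.5 and 0.43 (0.04 to 0.81) at E11.75. With TMM factors the values were -0.17 and 0.18 in mesenchyme and -0.25 and 0.25 in epithelium, and 3 of the 4 intervals then held 0 (mesenchyme at E11.75, -0.03 to 0.38; epithelium at E11.5, -0.58 to 0.08, and at E11.75, -0.13 to 0.63).

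Within the KO at E11.5, Lrrn1 was at -0.28 and -0.36 in these types and had intervals above 0 in pre-supporting cells, coelomic epithelium, interstitial progenitors and mesonephric tubules, again untested. Groups of 1 sample allow no check for a sample far from its group.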

How the results depend on the processing

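No paired analysis was possible because each group had 1 sample. Of 64 values of the 8 KO ratios in pre-supporting cells under the alternatives, 59 stayed within the counting interval of the reported ratio, 5 moved beyond it and 0 reversed. Cst12 at E11.5 was at 3.51 with run 1 alone and 2.10 with run 2 alone, and at E11.75 at 1.996 in cells with at least 5000 UMIs. In those cells Glra1 was at 3.29 at E11.5 and 2.20 at E11.75. The cause was not tested. TMM factors put Glra1 at E11.75 at 0.78. The number of cell types past 2-fold in both KO samples became 2 for 2610028E06Rik with a minimum of 20 cells or none, 1 for Lrrn1 at 3-fold, and for Glra1 3 at 1.5-fold, 0 at 3-fold and 2 with a minimum of 20 cells, with none or in cells with at least 5000 UMIs. Of 424 values of the other ratios, 15 moved and 0 reversed. Of 48 values of the shares of cells with a UMI, 33 moved and 15 did not. Of the 12 genes named as most alike, Spearman's rho kept 3 (Tceal6, Ereg and 4930563E18Rik). The share of genes higher by over 2-fold in both KO samples in pre-supporting cells was 0.395%, and it was 0.815% with a minimum of 20 UMIs, 0.207% with 200, 2.01% at 1.5-fold, 0.0919% at 3-fold and 0.322% with TMM factors. At E11.75 the share higher was 4.39%, and 2.27% with TMM factors, and the share lower was 2.22%, and 3.70% with them. In germ cells 19 genes were higher in both, and 11 with TMM factors. Levels under 1 CPM rest on few UMIs, and with 1 sample per group the spread between embryos is unknown.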
